A study of Yarrowia lipolytica with 4 samples.

Results

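The 74 genes described here are those that the deposited annotation places in the oxidative phosphorylation pathway, out of 6797 genes in the table. The term alone decides membership, but the pathway was picked with earlier results of these data known. Genes were divided by ortholog number (KO) and description. The NADH dehydrogenase has 19 of them, succinate dehydrogenase 4, the bc1 complex 8, cytochrome oxidase 12, the F-type ATP synthase 13 and the vacuolar ATPase 13. The term holds 5 further genes outside these 6 complexes. RNA sequencing compared the yeast Yarrowia lipolytica strain F19, which comes from a study of CRISPR interference strains (an inactive Cas9 represses a gene chosen by a guide RNA) screened for growth with furfural or acetic acid, with the control strain WLH. Both derive from the laboratory strain PO1f. Both were grown for 48 h at 30 °C in SD-leu medium, to which furfural, an aldehyde released from plant biomass, was added at 2.4 mM, and each gave 2 libraries of poly(A) RNA. The sources used here name no repressed gene for F19, so none was checked, and cultures without furfural were not analysed here. Library totals lay between 18244313 and 24129664 counts, and every one of the 74 genes had at least 417 counts in each library. Nothing in the labels ties the libraries to separate cultures, so p-values reflect only how much these libraries varied, perhaps for technical reasons.

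In oxidative phosphorylation, the NADH dehydrogenase (complex I) and succinate dehydrogenase (complex II) pass electrons to ubiquinone. The bc1 complex (complex III) hands them to cytochrome c, and cytochrome oxidase (complex IV) hands them to oxygen. Complexes I, III and IV pump protons out of the mitochondrial matrix, and the F-type ATP synthase makes ATP as the protons return. The vacuolar ATPase is a related rotary machine that runs the other way, spending ATP to acidify the vacuole and other compartments. Unlike baker's yeast, Y. lipolytica has a proton-pumping complex I, and it depends on respiration to grow. Some subunits of these complexes are encoded in mitochondrial DNA; they are not among the 74 genes and were not analysed here.

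Transcripts of the oxidative phosphorylation genes were lower in F19 across all 6 complexes. Of the 74 genes, 67 fell, 0 rose and 7 did not pass edgeR's quasi-likelihood test at a threshold of 0.05 for p adjusted over all 6414 genes tested. Over all genes tested, 25.5% were called lower and 25.9% higher. The median log2 fold change of F19 over WLH was -0.83 for the 74 genes and 0.01 for all genes tested. Both F19 libraries lay below both WLH libraries for 72 of the 74, against 39.7% of all genes tested, and for 0 of the 74 did both lie above, against 39.9%. The fall was moderate in size: 25 of the 74 fell at least 2-fold, against 9.18% of all genes tested, and the largest was 2.96-fold. That count depended on the scaling and on 1 library: with library totals in place of TMM scaling, 7 of the 74 fell at least 2-fold, against 5.69% of all genes tested, and without F19 replicate 2 the count was 14, against 8.55%. In bulk RNA of a culture, a lower level in every cell and fewer cells with the higher level cannot be told apart.

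By complex, the median log2 fold change was -1.11 for bc1, -1.04 for the NADH dehydrogenase, -0.81 for cytochrome oxidase, -0.77 for succinate dehydrogenase, -0.68 for the ATP synthase and -0.57 for the vacuolar ATPase. The ranges overlapped, since the bc1 genes ran from -1.48 to -0.82 and the vacuolar ATPase genes from -1.04 to -0.06. The differences between complexes were not tested. For the subsets of libraries given below, the share of all genes that fell in every subset was not computed. Counts by complex in later paragraphs are to be read beside the shares of all genes tested given here and above for the same fits. These directions are relative to TMM scaling. With library totals in its place the median of all genes moved to 0.24, and 51 of the 74 genes fell and 0 rose, with a median of -0.59; over all genes 1066 (16.6%) fell and 2419 rose, in place of 1635 and 1659. The calls also depended on the libraries kept: leaving out WLH replicate 1 or WLH replicate 2 left 46 falls each time, where 14.8% and 13.3% of all genes tested were called lower. Leaving out F19 replicate 1 or F19 replicate 2 left 68 and 62, where 24.5% and 22.5% of all genes tested were. The 42 genes that fell in every one of these 4 subsets included all 8 of bc1 and 17 of 19 of the NADH dehydrogenase, but 3 of 13 of the ATP synthase and 3 of 13 of the vacuolar ATPase.

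**Figure D1:**
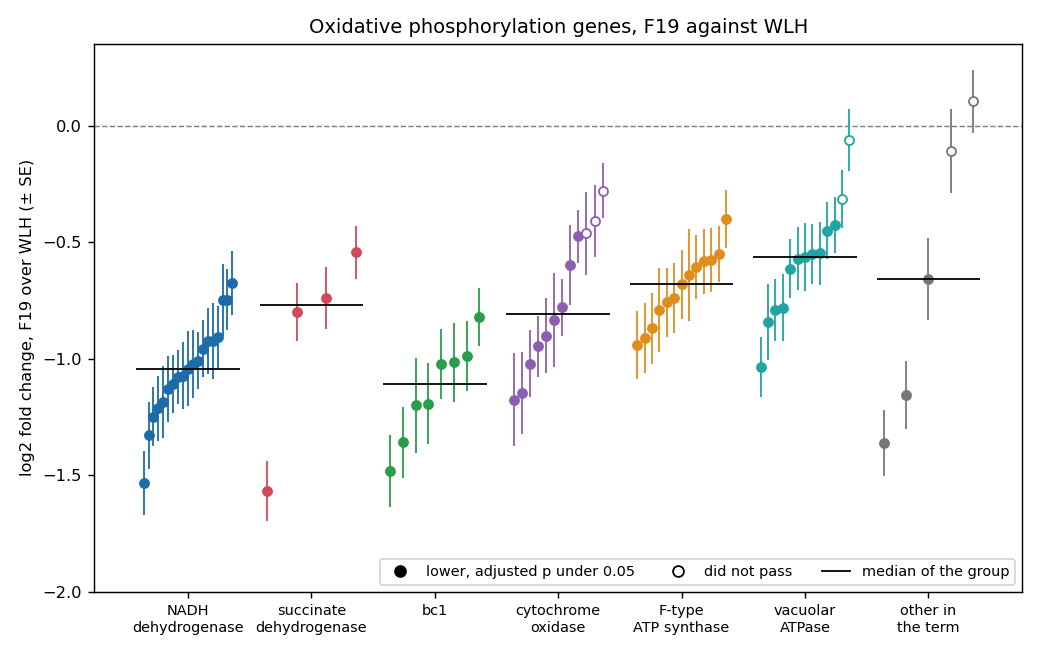
Log2 fold change of F19 over WLH (y axis) for each of the 74 genes, grouped by complex and ordered within it; bars are the standard error, filled points fell and open points did not pass. The medians (black lines) run from -1.11 for bc1 to -0.57 for the vacuolar ATPase, and 1 gene, outside the complexes, lies above 0.

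Levels are given from here on as scaled FPKM: fragment counts per kilobase of exon, scaled to the size of the library with its TMM factor, so that genes of different length can be compared. In the order of their WLH levels, the ATP synthase genes came first, with a median over genes of 934 in WLH and 612 in F19. Cytochrome oxidase followed with 507 and 300.3, then bc1 with 470.02 and 201, the vacuolar ATPase with 187 and 122, the NADH dehydrogenase with 184 and 84.7 and succinate dehydrogenase with 171 and 108. In F19 the last 2 stood in the opposite order. The order of these medians was not tested.

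**Figure D2:**
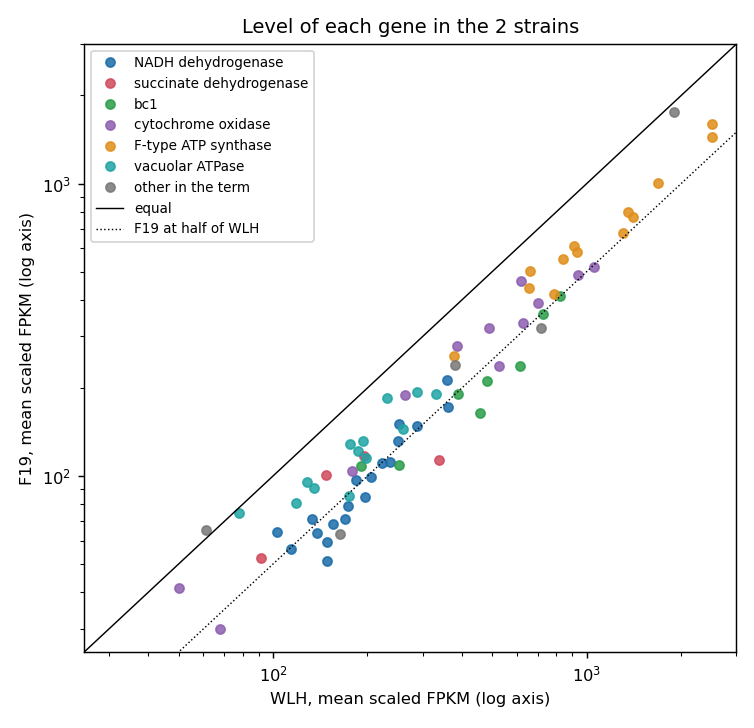
Mean scaled FPKM of each gene in WLH (x axis) and F19 (y axis), both on log axes, coloured by complex; the solid line marks equal levels and the dotted line a level 2-fold lower in F19. The ATP synthase genes lie at the upper right between the lines, and the bc1 and NADH dehydrogenase genes lie on or near the dotted line.

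All 19 NADH dehydrogenase genes of the term fell, from -1.53 ± 0.14 to -0.68 ± 0.14 on the log2 scale (SE), and 12 of them at least 2-fold. Over all genes tested, 25.5% were called lower and 9.18% fell at least 2-fold. Further complex I subunits lie outside the term and are described below, among them BKA90DRAFT_132379, which did not pass. With library totals all 19 of these genes also fell, 3 of them at least 2-fold, where the shares of all genes tested were 16.6% and 5.69%. The complex has a core that carries out electron transfer and a shell of accessory subunits. Within the term, its 7 core genes had a median log2 fold change of -0.93 and its 12 accessory genes one of -1.06. The 51 kDa subunit BKA90DRAFT_141487, which binds NADH and the flavin FMN, had 148 and 116 scaled FPKM in the F19 libraries and 260.1 and 241 in the WLH libraries, a fall of 1.9-fold (edgeR, adjusted p = 0.00381). The 24 kDa subunit NUHM, BKA90DRAFT_136116, with an iron-sulfur cluster beside the flavin, had 76.1 and 66.4 in F19 and 172 and 167 in WLH and showed the largest core change, 2.38-fold. Both subunits were lower in both F19 libraries than in either WLH library, as were all 19 genes, against 39.7% of all genes tested.

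Further along the electron path, the 75 kDa subunit NUAM, BKA90DRAFT_36041, which holds several iron-sulfur clusters, had 84.5 and 73.7 scaled FPKM in F19 and 179.6 and 167 in WLH. The 49 kDa subunit NUCM, BKA90DRAFT_134222, which helps to form the ubiquinone site, had 70.1 and 72.3 in F19 and 143 and 124 in WLH. NUIM, BKA90DRAFT_141292, the homolog of the bovine TYKY subunit that carries iron-sulfur clusters, had 77.1 and 59.8 in F19 and 162 and 150.1 in WLH. Their falls were 2.19-fold, 1.87-fold and 2.28-fold. NUGM, BKA90DRAFT_138078, the 30 kDa subunit, fell 1.9-fold. NUKM, BKA90DRAFT_133376, the homolog of bovine PSST with the last cluster before ubiquinone, fell 1.60-fold, the smallest fall among the complex I genes of the term. NUKM had 69.6 and 59.4 in F19 and 110.1 and 95.9 in WLH, and its call was lost without WLH replicate 1 (edgeR, adjusted p = 0.0608).

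Among the accessory subunits, the gene with the ortholog number of NDUFA5, BKA90DRAFT_97548, fell most, from 153 and 145 scaled FPKM in WLH to 56.0 and 46.9 in F19 (log2 fold change -1.53 ± 0.14, SE; edgeR, adjusted p = 0.000527). NDUFA2, BKA90DRAFT_98462, a thioredoxin-like protein, fell 2.51-fold, from 156 and 141 to 57.1 and 61.4. The acyl carrier protein NDUFAB1, BKA90DRAFT_113934, a subunit of complex I that also belongs to mitochondrial fatty acid synthesis, had 146 and 149.8 in F19 and 302 and 272 in WLH and fell 1.94-fold. NDUFA9, BKA90DRAFT_139973, had 235 and 192 in F19 and 372 and 347 in WLH, the highest mean over all 4 libraries of the accessory genes, though not over the WLH libraries alone; it and NDUFS4, BKA90DRAFT_132899, each fell 1.68-fold. The call of NDUFA9 was lost without WLH replicate 1 (edgeR, adjusted p = 0.0649). The other 7, NDUFS5, NDUFS6, NDUFA6, NDUFA8, NDUFB7, NDUFB8 and NDUFB9, fell between 2.01-fold and 2.32-fold.

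Succinate dehydrogenase, which also works in the tricarboxylic acid cycle, showed an uneven fall of its 4 genes. The iron-sulfur subunit BKA90DRAFT_137134, which carries electrons from the flavin to ubiquinone, had 116 and 112 scaled FPKM in F19 and 348 and 327 in WLH, and its log2 fold change was -1.57 ± 0.13 (SE; edgeR, adjusted p = 0.000442). This was the largest fall of all 74 genes. The flavoprotein BKA90DRAFT_174187, which oxidises succinate, had 117 and 117 in F19 and 205 and 185 in WLH and fell 1.67-fold. Within a library, the ratio of the iron-sulfur gene to the flavoprotein gene was 0.995 and 0.956 in F19 against 1.70 and 1.76 in WLH. This pair was singled out after its values were seen, so the ratio is a description with no test. The membrane anchors, which hold the enzyme in the inner membrane, were BKA90DRAFT_694, which has the ortholog number of the cytochrome b subunit, with 50.8 and 54.4 in F19 and 96.2 and 86.7 in WLH, and the CybS-type small subunit BKA90DRAFT_160931, with 100.4 and 102 in F19 and 152 and 143 in WLH. They fell 1.74-fold and 1.46-fold, and the second call was lost without WLH replicate 1 (edgeR, adjusted p = 0.0581). It was also lost with library totals in edgeR and in the 3 limma fits on FPKM, with adjusted p between 0.0557 and 0.0628, which left 3 of 4 falls.

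All 8 genes of the bc1 complex fell, 6 of them at least 2-fold, and all 8 fell also in each subset with 1 library left out and with library totals. The 2-fold count was 2 with library totals, namely cytochrome c1 and subunit 7, and 2 without F19 replicate 2. Cytochrome c1, BKA90DRAFT_89353, which passes electrons to cytochrome c, had 179 and 148 scaled FPKM in F19 and 480.5 and 436 in WLH, a log2 fold change of -1.48 ± 0.15 (SE; edgeR, adjusted p = 0.00073). The Rieske iron-sulfur protein BKA90DRAFT_136306, which takes electrons from ubiquinol, had 396 and 321 in F19 and 788 and 663 in WLH and fell 2.02-fold. Core protein 2, BKA90DRAFT_80505, of the part that faces the matrix, had 207 and 176 in F19 and 410.4 and 367 in WLH, a 2.03-fold fall. F19 replicate 2 was the lowest library for each of these 3 genes. Both F19 libraries lay below both WLH libraries, as they did for 39.7% of all genes tested.

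The small bc1 subunits surround the catalytic centre and stabilise it. Subunit 7, BKA90DRAFT_139501, fell 2.57-fold, from 645 and 579.7 to 262 and 215 scaled FPKM, and subunit 8, BKA90DRAFT_138046, the most abundant transcript of the complex, fell 1.98-fold, from 869.9 and 768 to 449 and 376. Subunit 9, BKA90DRAFT_136550, had F19 libraries that lay apart, at 129 and 89.3, below 279.9 and 223 in WLH, and the hinge protein, subunit 6, BKA90DRAFT_134053, had 241 and 180.5 below 514 and 449.6. They fell 2.30-fold and 2.29-fold. Subunit 10, BKA90DRAFT_99136, showed the smallest fall, 1.77-fold; its gene overlaps the neighbouring BKA90DRAFT_24587 on the same strand by 378 bases, and reads there cannot be told apart.

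Cytochrome oxidase was represented by 8 genes of nuclear-encoded subunits and 4 of assembly factors. Of the 8 subunit genes 6 fell and 2 did not pass, with a median log2 fold change of -0.87. Of the 4 assembly genes 3 fell and 1 did not pass, with a median of -0.63. For all 12 the F19 libraries lay below the WLH libraries, against 39.7% of all genes tested. Subunits are named here by the mammalian numbering of their ortholog numbers. Subunit 5b, BKA90DRAFT_86205, had the highest level of the complex, with 538 and 502 scaled FPKM in F19 and 1126 and 984 in WLH, and fell 2.03-fold (edgeR, adjusted p = 0.00172). Subunit 4, BKA90DRAFT_89122, had 493 and 479.9 in F19 and 950.02 and 924 in WLH, values close together within each strain, and fell 1.93-fold. Subunit 6b, BKA90DRAFT_135130, had 277 and 199 in F19 and 545 and 509 in WLH and the largest fall of a subunit, 2.21-fold.

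Subunit 6a, BKA90DRAFT_138142, fell 1.87-fold, from 639.9 and 608 to 374 and 294 scaled FPKM. Subunit 5a, BKA90DRAFT_9061, had 366 and 276 in F19 and 512 and 460.2 in WLH, a 1.51-fold fall whose call was lost without F19 replicate 2 (edgeR, adjusted p = 0.0584), WLH replicate 1 (0.155) or WLH replicate 2 (0.0897). It was lost as well with library totals in edgeR and in the 3 limma fits, with adjusted p between 0.113 and 0.129. The annotation gives 2 genes, each of 273 exonic bases, the same ortholog number of subunit 7, so reads may be shared between them. BKA90DRAFT_136750 had 469 and 315 in F19 and 749 and 648 in WLH and fell 1.78-fold, a call lost without WLH replicate 1 (edgeR, adjusted p = 0.0968) or replicate 2 (0.0548), or in limma without a filter (0.059). BKA90DRAFT_133549 had 327 and 231 in F19 and 402 and 367 in WLH and did not pass (log2 fold change -0.46 ± 0.18, SE; edgeR, adjusted p = 0.0653). The other subunit gene that did not pass was 7c, BKA90DRAFT_133551, with 506 and 421 in F19 and 669 and 563 in WLH (log2 fold change -0.41 ± 0.15, SE; edgeR, adjusted p = 0.06).

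These last 2 genes, BKA90DRAFT_133549 and BKA90DRAFT_133551, are neighbours. They lie on scaffold ML755980.1 at 395741 to 397126 on the minus strand and at 397271 to 398044 on the plus strand, with 144 bases and 0 genes between them. Their starts face each other across that gap. Among the subunit genes of the mitochondrial complexes in the pathway term, they were the only ones that did not pass. In both, the F19 libraries lay below the WLH libraries, as they did for 39.7% of all genes tested.

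The assembly factors of cytochrome oxidase supply its cofactors. COX15, BKA90DRAFT_134055, a heme A synthesis enzyme, had 36.1 and 23.7 scaled FPKM in F19 and 65.5 and 69.7 in WLH and fell 2.26-fold, the largest fall of the 12. COX10, BKA90DRAFT_133588, the farnesyltransferase of the step before, had 39.6 and 42.9 in F19 and 49.4 and 50.8 in WLH and did not pass (log2 fold change -0.28 ± 0.12, SE; edgeR, adjusted p = 0.0846). COX11, BKA90DRAFT_135660, which delivers copper, fell 1.72-fold, from 176 and 181 to 108 and 99.97. COX17, BKA90DRAFT_137763, a copper carrier, fell 1.39-fold, from 265 and 262 to 187 and 192, a call lost without WLH replicate 1 (edgeR, adjusted p = 0.0735) or replicate 2 (0.072). With library totals in edgeR and in the 3 limma fits it was lost too, with adjusted p between 0.104 and 0.123. Falls in cytochrome oxidase numbered 7 of 12 with library totals and 6 without WLH replicate 1 or WLH replicate 2. Of the 2 heme A genes 1 fell and 1 did not pass, and the difference between them was not tested.

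All 13 genes of the F-type ATP synthase fell, by less than 2-fold each, from -0.94 ± 0.14 to -0.40 ± 0.13 on the log2 scale (SE). Within the term, the catalytic head and shaft (F1) had 4 genes with a median of -0.72, and the side stalk and membrane part had 9 with a median of -0.61. The beta subunit BKA90DRAFT_133136, which holds the catalytic sites, had 1326 and 1569 scaled FPKM in F19 and 2467 and 2544 in WLH and fell 1.73-fold (edgeR, adjusted p = 0.0106). The alpha subunit BKA90DRAFT_138139, its partner in the head, had 1402 and 1803 in F19 and 2532 and 2468 in WLH and fell 1.56-fold. These 2 had the highest levels in WLH of all 74 genes, and their ratio, alpha over beta, was 1.06 and 1.15 in the F19 libraries and 1.03 and 0.97 in the WLH libraries. In the shaft, gamma, BKA90DRAFT_138123, fell 1.69-fold, from 1339.8 and 1370.3 to 777 and 825, and delta, BKA90DRAFT_137390, fell 1.60-fold, from 908 and 960.3 to 540.02 and 625.

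The subunit OSCP, BKA90DRAFT_139410, which joins the head to the side stalk, had 651 and 709 scaled FPKM in F19 and 1312 and 1300.4 in WLH and fell most, 1.92-fold. The stalk subunit h, BKA90DRAFT_133486, had 377 and 458 in F19 and 824 and 748 in WLH and fell 1.88-fold, and stalk subunit b, BKA90DRAFT_135536, had 719 and 819 in F19 and 1405 and 1404 in WLH and fell 1.83-fold. These 3 kept their call in each subset with 1 library left out. The stalk subunit d, BKA90DRAFT_138871, fell 1.67-fold, from 1638 and 1725 to 952 and 1060.05. The small membrane subunits f, g, j and k fell between 1.47-fold and 1.52-fold. Subunit e, BKA90DRAFT_132666, which with g helps the enzyme to form dimers in the membrane, had 494 and 508 in F19 and 660.1 and 663 in WLH and fell least, 1.32-fold (edgeR, adjusted p = 0.0331). Each of the other 10 lost its call without at least 1 of the WLH libraries: with WLH replicate 1 left out 3 genes of the complex fell, and with WLH replicate 2 left out 4, with adjusted p in edgeR between 0.0527 and 0.177 for those lost. Subunit e also lost its call without F19 replicate 1 (edgeR, adjusted p = 0.0507). With library totals 7 fell, where 16.6% of all genes tested were called lower. The calls of alpha, e, f, g, j and k were lost there and in the 3 limma fits (adjusted p between 0.0543 and 0.289). The shares of all genes tested for the fits with 1 library left out are given above.

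In the vacuolar ATPase, 11 of 13 genes fell and 2 did not pass. All 7 genes of V1, the part in the cytosol that splits ATP, fell, with a median log2 fold change of -0.57, and 4 of the 6 genes of V0, the part in the membrane that carries protons, fell, with a median of -0.50. In V1, the catalytic subunit A, BKA90DRAFT_139884, had 161 and 128 scaled FPKM in F19 and 247 and 272 in WLH and fell 1.79-fold (edgeR, adjusted p = 0.00534). Subunit B, BKA90DRAFT_132305, which also binds nucleotide, had 189 and 192 in F19 and 319.7 and 340.3 in WLH and fell 1.73-fold. The stalk subunit E, BKA90DRAFT_119038, fell 1.72-fold, from 187 and 209 to 125 and 105. Subunit H, BKA90DRAFT_135773, which regulates the enzyme, had 99.7 and 82.4 in F19 and 127 and 142 in WLH and fell 1.48-fold, and subunits D, F and G fell between 1.35-fold and 1.49-fold.

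The membrane part V0 held both extremes of the complex. The proteolipid BKA90DRAFT_135271, of the rotating ring, with the ortholog number of subunit c'', had 91.3 and 79.2 scaled FPKM in F19 and 169.99 and 179.7 in WLH and fell 2.05-fold (edgeR, adjusted p = 0.00111). Of 2 further proteolipid genes with the ortholog number of subunit c, BKA90DRAFT_132587 fell 1.53-fold, from 173 and 201 to 124 and 120.3, while BKA90DRAFT_134065 had 187 and 184 in F19 and 225 and 237 in WLH and did not pass (log2 fold change -0.32 ± 0.12, SE; edgeR, adjusted p = 0.0684). Subunit d, BKA90DRAFT_126936, which couples the ring to the shaft, fell 1.37-fold. Subunit a, which forms the proton path, is encoded by 2 genes in this annotation; in baker's yeast the 2 forms of this subunit sit in different compartments. BKA90DRAFT_112149 had 83.3 and 78.3 in F19 and 116 and 121 in WLH and fell 1.46-fold, and BKA90DRAFT_135671 had 77.5 and 71.8 in F19 and 73.0 and 82.7 in WLH, overlapping values that did not pass (log2 fold change -0.06 ± 0.13, SE; edgeR, adjusted p = 0.721). The ratio of the first to the second was 1.08 and 1.09 in the F19 libraries and 1.59 and 1.46 in the WLH libraries, a description with no test. The call of BKA90DRAFT_112149 was lost without WLH replicate 1 or WLH replicate 2. It was also lost with library totals in edgeR and in the 3 limma fits, with adjusted p between 0.063 and 0.0761. The counts that follow are to be read beside the shares of all genes tested given above for the same fits. With 1 library left out, the falls numbered 11 of 13 without F19 replicate 1, 7 without F19 replicate 2, 7 without WLH replicate 1 and 3 without WLH replicate 2, with adjusted p in edgeR between 0.0526 and 0.117 for those lost; with library totals 5 fell.

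**Figure D3:**
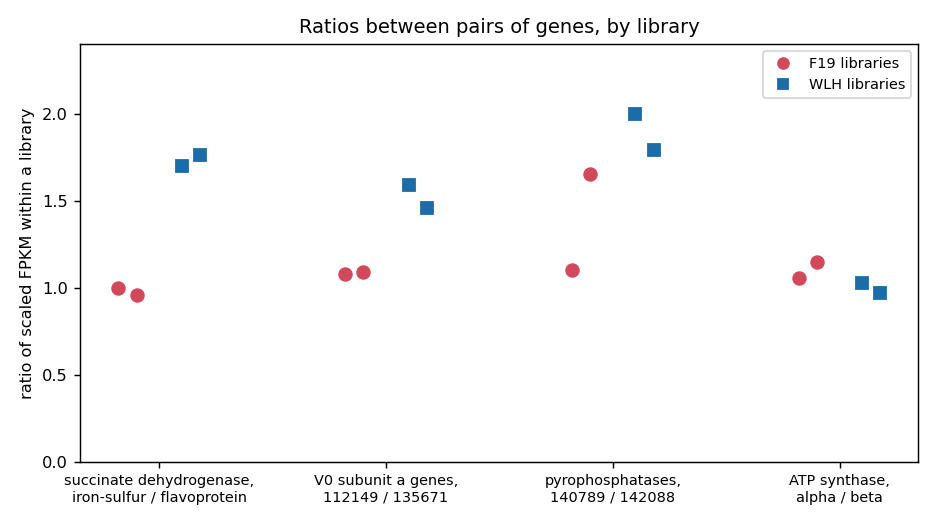
Ratio of the scaled FPKM of 2 genes within each library (y axis, from 0) for 4 pairs; circles are F19 libraries and squares WLH libraries, and gene numbers leave out the BKA90DRAFT prefix. The iron-sulfur over flavoprotein ratio is 0.956 to 0.995 in F19 and 1.70 to 1.76 in WLH. Alpha over beta of the ATP synthase is 1.06 and 1.15 in F19 and 1.03 and 0.97 in WLH.

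Of the 5 genes of the term outside the complexes, 3 fell and 2 did not pass. BKA90DRAFT_138889 has the ortholog number of an NADH dehydrogenase of the single-chain type, which passes electrons to ubiquinone without pumping protons. It had 59.1 and 67.9 scaled FPKM in F19 and 156 and 171 in WLH and fell 2.57-fold (edgeR, adjusted p = 0.00073). Inorganic pyrophosphatase, which splits the pyrophosphate left by biosynthetic reactions, has 2 genes. BKA90DRAFT_140789 had 303 and 339 in F19 and 731 and 703 in WLH and fell 2.23-fold, and BKA90DRAFT_142088 had 276 and 205 in F19 and 366 and 392 in WLH and fell 1.58-fold, a call lost without WLH replicate 1 (edgeR, adjusted p = 0.0884) or replicate 2 (0.121), and with library totals in edgeR and the 3 limma fits (0.0776 to 0.0909). Their ratio was 1.10 and 1.66 in F19 and 2.00 and 1.79 in WLH, so the F19 libraries differed from each other.

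The plasma membrane proton pump BKA90DRAFT_127901, by its ortholog number a P-type ATPase that spends ATP to drive nutrient uptake, was among the highest of the 74 genes. It had 1752 and 1769 scaled FPKM in F19 and 1851 and 1948 in WLH and did not pass (log2 fold change -0.11 ± 0.18, SE; edgeR, adjusted p = 0.632). For BKA90DRAFT_148018 the annotation conflicts: its ortholog number is that of the acyl carrier protein of complex I, but its description is a major facilitator transporter and its exons span 2301 bases, against 628 for the acyl carrier gene BKA90DRAFT_113934. It was therefore kept out of complex I. It had 60.3 and 70.7 in F19 and 63.7 and 58.3 in WLH, overlapping values, and was the 1 gene of the 74 with a log2 fold change above 0 (0.10 ± 0.14, SE; edgeR, adjusted p = 0.547).

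Beyond the term, 27 related genes were found by their descriptions; 18 fell, 2 rose and 7 did not pass, with a median log2 fold change of -0.65, beside the 25.5% of all genes tested that were called lower and the 25.9% called higher. Of 5 genes of bypass enzymes and carriers, 4 fell. Cytochrome c, BKA90DRAFT_142997, the carrier between complexes III and IV, had 806 and 651 scaled FPKM in F19 and 2073 and 1923 in WLH and fell 2.74-fold (edgeR, adjusted p = 0.000926). The alternative oxidase BKA90DRAFT_141594, which hands electrons from ubiquinol straight to oxygen, had 678 and 707 in F19 and 1498 and 1323 in WLH and fell 2.04-fold. A second alternative oxidase, BKA90DRAFT_158227, stood at 0.211 and 0.262 in F19 and 1.94 and 1.03 in WLH on the same scale, from raw counts of 6 and 7 against 57 and 23, and fell 6.28-fold, a call lost without WLH replicate 1 (edgeR, adjusted p = 0.06). The external alternative NADH dehydrogenase BKA90DRAFT_134019, which oxidises cytosolic NADH, had 233 and 251 in F19 and 413 and 408 in WLH and fell 1.70-fold, a call lost without WLH replicate 2 (edgeR, adjusted p = 0.0501). A gene described as an ADP/ATP carrier, BKA90DRAFT_173279, rose, but its F19 libraries lay far apart, at 5.94 and 67.9, above 1.37 and 1.91 in WLH. Its raw counts were 126 and 1355 in F19 and low in WLH, at 30 and 32. Its call was lost in the robust fit (edgeR, adjusted p = 0.086). It was also lost without WLH replicate 1 (log2 fold change 4.267) or WLH replicate 2 (4.745). The search by description found no other ADP/ATP carrier, and any differently described ones were not looked at here.

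Of 5 genes described as subunits but outside the term, 4 fell. They were the epsilon chain of the ATP synthase, BKA90DRAFT_133625 (1.5-fold), the complex I subunits BKA90DRAFT_161893, described as NDUFA12 (1.5-fold), and BKA90DRAFT_143354, described as subunit 3 of the beta subcomplex (1.59-fold), and the vacuolar subunit BKA90DRAFT_137996 (1.44-fold). The 21 kDa subunit of complex I, BKA90DRAFT_132379, had 196 and 184 scaled FPKM in F19 and 282 and 223 in WLH and did not pass (log2 fold change -0.41 ± 0.15, SE; edgeR, adjusted p = 0.0524). Leaving out a library ended the call of BKA90DRAFT_161893 without WLH replicate 1 (edgeR, adjusted p = 0.0813) or replicate 2 (0.069). For BKA90DRAFT_143354 this was so without F19 replicate 2 (0.0938), WLH replicate 1 (0.178) or WLH replicate 2 (0.0619), and for BKA90DRAFT_137996 without the same 3 (0.0771, 0.0585 and 0.132). The search by description found 2 ubiquinone synthesis genes, and any others of that pathway were not looked at here. COQ4, BKA90DRAFT_133885, fell 1.46-fold and Coq7, BKA90DRAFT_139563, 1.65-fold. Each call was lost without WLH replicate 1 or WLH replicate 2, and that of COQ4 also without F19 replicate 2.

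The 15 assembly and expression factors were mixed: 8 fell, 1 rose and 6 did not pass. The copper chaperone SCO1, BKA90DRAFT_17890, of cytochrome oxidase had 149 and 107 scaled FPKM in F19 and 284 and 276 in WLH and fell 2.2-fold (edgeR, adjusted p = 0.00256). CIA30, BKA90DRAFT_26408, which helps to assemble complex I, had 57.6 and 67.1 in F19 and 124 and 127 in WLH and fell 2.01-fold, and NCA2, BKA90DRAFT_138524, described as an ATP synthase regulator, fell 2.02-fold. The 5 further genes that fell, all described as cytochrome oxidase assembly or biogenesis factors, fell between 1.57-fold and 1.88-fold, and of these 5 only BKA90DRAFT_135221 kept its call in every subset with 1 library left out. While all 8 bc1 subunit genes fell, the 3 bc1 assembly factors did not pass. BCS1, BKA90DRAFT_139361, which inserts the Rieske protein, had 28.8 and 30.5 in F19 and 30.5 and 35.7 in WLH. The chaperone BKA90DRAFT_140231 had 89.4 and 84.8 in F19 and 99.8 and 101 in WLH, and CBP4, BKA90DRAFT_143158, had 50.7 and 42.8 in F19 and 60.7 and 55.1 in WLH. The difference between subunits and assembly factors was not tested. The other 3 that did not pass were BKA90DRAFT_133782, described as a subunit VIb domain protein, the succinate dehydrogenase assembly factor BKA90DRAFT_136658 and COX16, BKA90DRAFT_89567, with log2 fold changes between -0.38 ± 0.15 and 0.13 ± 0.14 (SE). Pet127, BKA90DRAFT_160027, which acts on mitochondrial RNA in baker's yeast, rose 1.43-fold, from 17.2 and 14.3 to 21.7 and 23.5, a call lost without F19 replicate 2 (edgeR, adjusted p = 0.0603) or WLH replicate 2 (0.139). Among all 27 related genes, leaving out WLH replicate 2 left 8 falls and leaving out WLH replicate 1 left 10.

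The genes of most complexes also shifted to the same side between the 2 libraries of a strain. All 13 vacuolar ATPase genes were higher in WLH replicate 2 than in WLH replicate 1, while all 19 of the NADH dehydrogenase, all 4 of succinate dehydrogenase, all 8 of bc1 and all 8 cytochrome oxidase subunit genes were lower. The 4 cytochrome oxidase assembly genes were split, with 1 lower and 3 higher, as was the ATP synthase, with 7 of 13 lower. Over all genes tested 51.9% were lower in WLH replicate 2. Within F19, all 8 bc1 genes, all 8 cytochrome oxidase subunit genes, 16 of 19 NADH dehydrogenase genes and 12 of 13 vacuolar ATPase genes were lower in replicate 2 than in replicate 1, 12 of 13 ATP synthase genes were higher, and succinate dehydrogenase and the cytochrome oxidase assembly genes were split, each with 2 of 4 lower. Over all genes tested 49.8% were lower in F19 replicate 2. The genes of a complex are thus not independent measurements. The median log2 difference from the WLH mean was -0.93 and -1.29 for bc1 in F19 replicates 1 and 2, and -0.80 and -0.67 for the ATP synthase. For each of the 6 complexes, the medians of both F19 libraries lay below those of both WLH libraries.

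**Figure D4:**
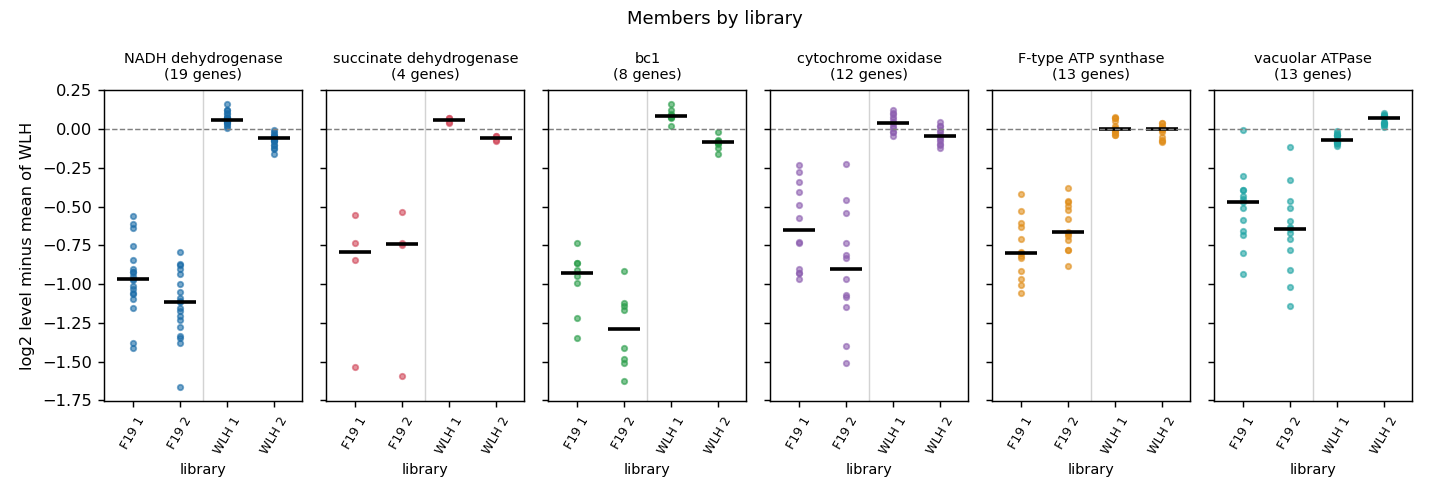
Log2 level of each gene minus its mean over the WLH libraries (y axis) in each of the 4 libraries (x axis), 1 panel a complex; points are genes and black bars their median. The bc1 genes lie lower in F19 replicate 2 (median -1.29) than in replicate 1 (-0.93), the ATP synthase genes the other way (-0.67 and -0.80), and all vacuolar ATPase genes lie higher in WLH replicate 2 than in WLH replicate 1.

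The 74 genes lie on 47 scaffolds, with few next to each other. Besides the pair of cytochrome oxidase genes on ML755980.1, 2 pairs of members are direct neighbours. The hinge protein BKA90DRAFT_134053 and COX15, BKA90DRAFT_134055, follow each other on the plus strand of ML755982.1, at 346390 to 347444 and 347978 to 349627. The ATP synthase alpha gene BKA90DRAFT_138139 and cytochrome oxidase subunit 6a, BKA90DRAFT_138142, lie on ML756006.1 at 205122 to 207280 on the minus strand and 208534 to 209813 on the plus strand, 1253 bases apart. Their changes were -0.64 ± 0.20 and -0.90 ± 0.16 (log2, SE). The genes are short, with a median exonic length of 786 bases against 1417 for all genes tested, and well expressed: the lowest ranked above 55.5% of the genes tested by mean scaled FPKM. Of the 74, 7 overlap another gene, by 4 to 378 bases, and the protocol names no strand-marking step.

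The authors' deposited table of significant genes, in which no absolute log2 fold change is under 1.00, held 25 of the 74 genes, all lower in F19. Of the 6797 genes of the count table, 8.56% were lower in the authors' deposited table. In the authors' deposited table, the largest fall among them was that of the succinate dehydrogenase iron-sulfur subunit BKA90DRAFT_137134, with a log2 fold change of -1.56 and a standard error of 0.101.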

How the data were processed

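Poly(A) RNA of 2 libraries per strain was sequenced as paired ends. The submitters' processing notes name DESeq2, HISAT2 2.2.1, cutadapt 1.9.1 and HTSeq 0.6.1. Their settings, the strand setting among them, and the build were not given in the sources used here; scaffold names and positions were taken from the table. Per the file headers, the authors deposited raw counts per gene and FPKM with exonic lengths. A second deposited table was limited to significant genes and gave, per the file headers, mean normalised signal, fold and log2 fold change, its error, a test score, p-values and adjusted p-values. One column name has a letter I for the digit of WLH replicate 1 and was matched by its strain and the rest of the name; every sample column was mapped. The reference gene table matched 0 identifiers, so no sequences are shown and names come from the deposited annotation.

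The 3 rows that name no gene (0.134% to 0.387% of counts) were left out. A test of all 4 libraries on the deposited counts used R 4.3.3 and edgeR 4.0.16: filterByExpr (6414 genes, all 74 members among them), TMM factors between 0.916 and 1.10, and a two-sided quasi-likelihood test of strain, with Benjamini-Hochberg adjustment over all genes tested and a threshold of 0.05. The SE is the log2 fold change over the root of F. Scaled FPKM was computed from counts, exonic length and TMM-scaled totals. The fits were tested on simulated counts with 200 changed genes, far fewer than the 3294 called here. Of the calls made there, 8.08% were false in edgeR, 10.1% in DESeq2 and 5.18% in limma. Of the 2-fold changes, 83.7%, 81% and 83% were recovered. Alternatives were other scalings and filters, DESeq2 1.42.0, limma 3.58.1 on log2(FPKM + 1) and log2(FPKM + 0.1), a robust fit, a replicate block and leaving out each library. The members and lists were chosen with earlier results of these data known, and the respiratory genes were already known to be lower. Named with values were, in each complex, the 2 largest and 2 smallest changes, the highest level, genes that did not pass, the main catalytic subunits, and all genes outside the complexes (49 genes in all); others were added after their values were seen, as were the related genes singled out. Some search patterns for related genes were worded after the descriptions were read. Electron transfer flavoprotein, prohibitin and SURF1 genes were also planned for that list, and none is among the related genes given here. Values of members that share an ortholog number are less certain, since copies can share reads.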

Additional observations from a re-analysis of the deposited data

How the results depend on the processing

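Of the 74 genes, 67 fell under median-ratio or upper-quartile scaling, both other count filters, DESeq2 and the robust fit, and 0 rose under any alternative run. With library totals, limma on log2(FPKM + 1), limma on log2(FPKM + 0.1) and limma without a filter, 51, 50, 50 and 49 fell, where the medians of all genes were 0.24, 0.23, 0.24 and 0.19. In the same order, 16.6%, 16.9%, 16.8% and 15.9% of all genes tested were called lower. Under the same 4, ATP synthase falls went from 13 to 7 in each, vacuolar ATPase falls from 11 to 5, 4, 4 and 4, cytochrome oxidase falls from 9 to 7, 7, 7 and 6 and succinate dehydrogenase falls from 4 to 3 in each; falls of related genes went from 18 to 11 in both filtered limma fits. In those 4 fits the V0 gene BKA90DRAFT_135671 turned to 0.18, 0.17, 0.17 and 0.17 and the proton pump BKA90DRAFT_127901 to 0.13, 0.12, 0.12 and 0.12, none past the threshold. With 1 library left out, BKA90DRAFT_135671 lay between -0.1464 (without WLH replicate 1) and 0.0312 (without WLH replicate 2) and at 0.0036 without F19 replicate 2, and BKA90DRAFT_148018 between -0.0043 (without F19 replicate 2) and 0.2101 (without F19 replicate 1).

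Leaving out 1 library gave 1670 to 3121 calls among all genes, 46 to 68 falls among the 74, 17 to 19 for the NADH dehydrogenase, 3 to 4 for succinate dehydrogenase, 8 to 8 for bc1, 6 to 11 for cytochrome oxidase, 3 to 13 for the ATP synthase, 3 to 11 for the vacuolar ATPase and 8 to 18 for related genes; a lone library was then taken to vary like the others. The lowest count of all calls was without WLH replicate 2, and 1919 were made without WLH replicate 1. Without F19 replicate 2, 7 vacuolar ATPase genes fell. Each of these fits held 1 library fewer, and the cause of the differences between them was not tested.

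Replicate numbers were not shown to pair the libraries: the correlation of the replicate differences of the strains across genes was -0.0908. With the replicate block, 3369 genes were called in place of 3294. Of the 74 genes 67 fell, against 26.0% of all genes tested. The calls of the ATP synthase alpha gene BKA90DRAFT_138139 (adjusted p = 0.0631) and subunit e, BKA90DRAFT_132666 (0.0683), were lost in edgeR. Those of BKA90DRAFT_133549 (0.0134) and BKA90DRAFT_133551 (0.0471) were gained. Leaving out scaffolds of the rows that name no gene was not run, since those rows were already out. At these depths every member had at least 417 counts, so the spread between 2 libraries, not counting error, limits precision.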
